A study of Mus musculus with 8 samples.

Results

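Broad H3K9ac domains were described in the bone marrow (BM) of *NUP98-HOXD13-tg* mice as the stretches of chromatin that a peak of at least 4000 bp covered in at least 1 library. H3K9ac, the acetylation of lysine 9 of histone H3, was listed in 6 ChIP-seq libraries, and 3047 of their 220499 peaks (1.38%) were this wide. Overlapping broad peaks of the 6 libraries were merged into 1315 domains, which fell into 1315 of the 64462 regions that the merged peaks of all widths formed. The domains had a median length of 4900 bp (interquartile range from 4369 to 5979 bp, range 4000 to 33273 bp) and made up 7.31 Mb. The 4000 bp cut had no gap around it, since 243 peaks were at most 100 bp above it and 326 at most 100 bp below. Peaks of 3999 bp at *Snx32*, *Srsf4* and *Hnrnpul1* stayed outside, whereas peaks of 4000 bp at *Clcn3* and *Xdh* and of 4001 bp at *Bcor* were the narrowest inside. The members were chosen by the width of the peaks in these same lists, so their widths and the values of the same libraries are given as a description without a test.

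All mice were C57BL/6 and carried the *NUP98-HOXD13* transgene, a leukaemia fusion gene that serves as a model of myelodysplastic syndrome. They carried in addition *GFI1-36S*, the common form of the transcriptional repressor GFI1, its variant *GFI1-36N*, or *GFI1-KD*, a form with reduced *GFI1* expression, and received either DMSO (vehicle; the labels give no curcumin) or weekly injections of curcumin (20 mg/kg), a plant polyphenol that inhibits histone acetyltransferases. Whole BM cells, which had been frozen, gave 1 library for each genotype and treatment. Mice were killed at signs of overt leukaemia or of failing health, so the libraries come from diseased marrow. The labels and the methods give whole or frozen BM cells, whereas a figure legend of the study speaks of c-kit+ cells, the immature fraction, and no sort is described in the methods of the ChIP-seq. The human *GFI1-36S* and *-36N* cDNAs stand in the mouse *Gfi1* locus. The sources used here do not state how many mice a library holds, the stage of each mouse, or the promoter of the transgene. As every group is a single library, differences cannot be set against a spread between replicates, and p-values are not given. A lower level in a library can come from fewer cells of a type or from less acetylation per cell, and in a mixture of cells these cannot be told apart. The controls of the series, an input from *GFI1-36S* and a rabbit IgG precipitation from *GFI1-36N* marrow, were not analysed here.

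As background, acetylation of H3K9 is written by histone acetyltransferases such as GCN5 and PCAF, removed by histone deacetylases, and marks active promoters, where it usually lies on the nucleosomes that flank the transcription start site (TSS). GFI1 recruits histone deacetylases and the demethylase LSD1 to its target genes. Domains that spread over several kilobases are known to lie over genes that define the identity of a cell and over highly transcribed genes. The *NUP98-HOXD13* fusion is known to keep the *HOXA* genes and their cofactors active in haematopoietic progenitors.

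The sequences under the summits differed widely in CpG content. For 5 domains that recur in the text, 300 bp are given around the highest summit that overlapped no annotated exon (mm10, plus strand, from the reference sequence, CpG dinucleotides in capitals). The *Irf2bp2* window (chr8:126584298-126584597, 9538 bp from the nearest TSS) comes from a domain broad in every library. Its summit ranked 7 in this domain. The highest summits of the domains broad in all 6 libraries lay a median of 248 bp from a TSS, so the window is not typical of them. The *Pbx3* and *Gata2* windows (chr2:34372363-34372662 and chr6:88194030-88194329, both intronic) come from progenitor genes. The intronic *Tcf7* window (chr11:52281676-52281975) comes from a T-cell gene and the intronic *Ltf* window (chr9:111020305-111020604) from a granule gene of neutrophils.
Irf2bp2: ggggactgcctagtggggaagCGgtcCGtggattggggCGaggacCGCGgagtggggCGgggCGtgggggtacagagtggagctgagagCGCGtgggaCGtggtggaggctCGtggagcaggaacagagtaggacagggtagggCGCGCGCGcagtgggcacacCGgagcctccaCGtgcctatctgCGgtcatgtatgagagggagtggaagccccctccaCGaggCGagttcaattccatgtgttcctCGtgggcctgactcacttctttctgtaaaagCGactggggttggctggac
Pbx3: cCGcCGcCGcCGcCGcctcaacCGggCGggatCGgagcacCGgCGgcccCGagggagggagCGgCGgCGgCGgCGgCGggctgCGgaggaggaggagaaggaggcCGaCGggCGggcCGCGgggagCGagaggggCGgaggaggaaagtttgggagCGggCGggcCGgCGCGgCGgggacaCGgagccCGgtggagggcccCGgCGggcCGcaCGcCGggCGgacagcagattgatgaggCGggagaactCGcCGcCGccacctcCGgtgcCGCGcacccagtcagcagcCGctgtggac
Gata2: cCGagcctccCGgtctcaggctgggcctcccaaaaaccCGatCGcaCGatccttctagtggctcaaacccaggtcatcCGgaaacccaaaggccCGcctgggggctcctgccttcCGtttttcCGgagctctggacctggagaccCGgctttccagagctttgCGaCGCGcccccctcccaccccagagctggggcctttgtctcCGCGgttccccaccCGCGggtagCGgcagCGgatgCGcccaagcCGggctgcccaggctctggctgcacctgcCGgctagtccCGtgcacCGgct
Tcf7: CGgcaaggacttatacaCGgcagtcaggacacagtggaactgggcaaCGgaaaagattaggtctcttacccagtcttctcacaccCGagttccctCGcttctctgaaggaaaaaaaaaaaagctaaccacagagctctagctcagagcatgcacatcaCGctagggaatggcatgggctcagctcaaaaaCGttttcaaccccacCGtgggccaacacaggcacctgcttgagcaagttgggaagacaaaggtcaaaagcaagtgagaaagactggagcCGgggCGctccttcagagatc
Ltf: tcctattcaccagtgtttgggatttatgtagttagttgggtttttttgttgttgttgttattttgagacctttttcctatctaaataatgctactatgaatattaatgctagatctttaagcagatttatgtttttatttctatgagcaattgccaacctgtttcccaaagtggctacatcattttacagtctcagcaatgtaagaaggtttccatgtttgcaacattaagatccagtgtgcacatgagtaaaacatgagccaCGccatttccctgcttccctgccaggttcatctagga
The *Pbx3* window held 47 CpGs at a GC content of 79.7%, the *Gata2* window 24, the *Irf2bp2* window 22 and the *Tcf7* window 10, whereas the *Ltf* window held 1 CpG at a GC content of 36.7%. The AP-1 motif TGACTCA lay in the *Irf2bp2* window and the RUNX motif TGTGGT, on the minus strand (ACCACA as printed), in the *Tcf7* window. Around the highest summit of each domain, the median GC content over 300 bp was 64.3%, against 50% over all regions, and the median ratio of observed to expected CpGs was 0.745 against 0.267. Regions with a TSS are CpG-rich at any width. Domains with the TSS of a protein-coding gene had a GC content of 66.3% and a CpG ratio of 0.782, compared with 64.7% and 0.739 in the other regions with such a TSS. On either strand, TGACTCA was present in 3.12% of the domain windows and 5.34% of the windows of all regions, TGTGGT in 10.8% and 21.0%, the GATA motif AGATAA in 5.10% and 12.5%, the ETS motif AGGAAGT in 4.71% and 10.4%, and the GFI1 motif AAATCAC in 1.83% and 3.25%. The same motifs were found in 2.36%, 9.96%, 4.10%, 4.10% and 1.31% of the windows of TSS domains, next to 2.37%, 11.3%, 4.26%, 5.24% and 1.37% of the other TSS regions. The HOX-MEIS motif TGATTTAT was found in 6 of the 1315 domain windows (0.456%), against 0.864% of all regions.

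Broad domains were promoter domains for the most part. Of the 1315 domains, 1145 (87.1%, Wilson 95% interval 85.2% to 88.8%, counting error only) held the TSS of a protein-coding gene, compared with 19.6% of all regions and 37.3% of the regions of 1000 to 2000 bp. A longer interval is more likely to hold a TSS by its length alone. The domains held the TSSs of 1328 of 21951 protein-coding genes (6.05%). 1 such gene was spanned by 938 domains, and more than 1 by 207 domains, up to 4 genes. In the domains of 1 gene, the acetylated stretch reached a median of 1507 bp upstream and 3468 bp downstream of the TSS and farther downstream than upstream in 84.9% of them. In the regions of 1000 to 2000 bp with 1 gene, the medians were 520 and 989 bp, and 80.5% reached farther downstream. The fold enrichment, the authors' ratio of the fragments at a summit to the local background, had a median of 29.3 for the highest summit of each domain and 4.17 for all regions, and 74.5% of the domains were in the top 10% of the regions. Of the 170 domains without the TSS of a protein-coding gene, 83 lay in a gene body and 87 between genes. The non-coding transcripts with a TSS in such domains included *Dleu2*, the host of the microRNAs miR-15a and miR-16-1.

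Most domains had a peak in every library but were broad in few. A domain was called broad in a library when a peak of at least 4000 bp overlapped it, split when 2 or more narrower peaks did, short when 1 did, and missing when none did. A peak was listed in all 6 libraries at 1061 domains (80.7%), but 612 domains were broad in 1 library alone, 212 in 2, 178 in 3, 136 in 4, 147 in 5 and 30 in all 6. *GFI1-36S* mice had 517 broad domains with vehicle and 67 with curcumin. *GFI1-36N* mice had 499 with vehicle and 655 with curcumin. *GFI1-KD* mice had 975 with vehicle and 316 with curcumin. *GFI1-KD* vehicle thus had the most broad domains and *GFI1-36S* curcumin the fewest, whereas the other 4 libraries lay between 316 and 655. At 1131 domains at least 1 library had the domain split into pieces, between 161 domains in *GFI1-KD* vehicle and 675 in *GFI1-36S* curcumin. The median share of a domain that peaks covered was 87.6% and 43.0% in *GFI1-36S* mice with vehicle and curcumin, 86.9% and 90.5% in the *GFI1-36N* pair, while the *GFI1-KD* pair had 98.4% and 76.0%.

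**Figure D1:**
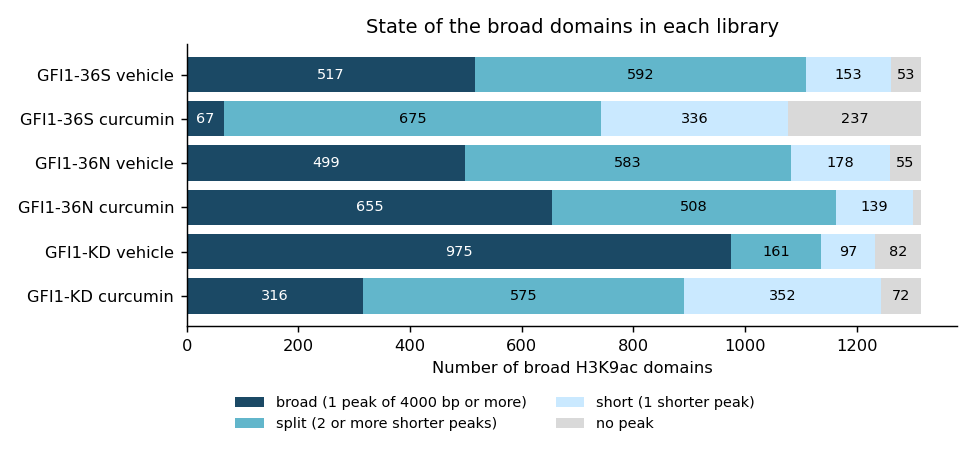
The bars give, for each of the 6 libraries, how many of the 1315 domains were broad, split, short or without a peak. *GFI1-KD* vehicle had 975 broad domains and *GFI1-36S* curcumin 67, and *GFI1-36S* curcumin had no peak at 237.

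The lists themselves were unequal, and the state of a domain depends on this. They held between 20354 peaks in *GFI1-36S* curcumin and 49213 in *GFI1-36N* curcumin. Peaks of at least 4000 bp made up 1.26% and 0.329% of the lists in *GFI1-36S* mice with vehicle and curcumin, 1.27% and 1.34% in the *GFI1-36N* pair, while the *GFI1-KD* pair had 2.49% and 1.04%. The lists carry no read totals. The fragments at a summit were recovered as whole numbers from the fold enrichment and p of the authors for 98.4% to 100% of the peaks (within 0.05 of a whole number), and a median summit held 24 to 36 fragments. *GFI1-36S* curcumin stood apart by cell type markers. A peak overlapped the promoter (1 kb on each side of the TSS) of 1 of 16 neutrophil genes in this library, against 9 to 14 in the others, of 1 of 10 monocyte genes against 9 or 10, and of 26 of 28 T-cell genes against 11 to 16. Of all regions with a *GFI1-36S* vehicle peak, 63.6% had none in *GFI1-36S* curcumin, and its low counts are to be read beside this. The share of all protein-coding promoters with a peak was not counted. The names of the *GFI1-36S* lists, and of the peaks in them, give vehicle where the sample label gives curcumin and the reverse, and the labels were followed. The names of the *GFI1-36N* lists read +ki for vehicle and kiki for curcumin. The labels do not mention this, but such names may stand for 1 and 2 copies of the *GFI1-36N* allele, and then treatment and copy number cannot be told apart in this pair.

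30 domains were broad in all 6 libraries, and 29 of them held the TSS of a protein-coding gene. Without *GFI1-36S* curcumin, 176 domains were broad in the other 5 libraries. The 30 domains included those of the transcriptional regulators *Irf2bp2*, *Ikzf1*, *Zbtb1*, *Tgif1*, *Lmo4*, *Elf1*, *Patz1* and *Trim8*, of the chromatin genes *Setd1b*, *Kmt2e*, *Arid1a*, *Arid2*, *Brd2*, *Cbx3* and *Hmga1*, of the cell cycle kinase *Cdk6* and of the chemokine receptor *Cxcr4*. *Irf2bp2* (chr8:126583533-126597407), a corepressor, carried the longest of them. Its widest peak measured 13852 and 5331 bp in *GFI1-36S* mice with vehicle and curcumin, 13459 and 13564 bp in the *GFI1-36N* pair, while the *GFI1-KD* pair had 13684 and 10453 bp. The domain was thus of nearly the same width in 4 libraries and narrowest in *GFI1-36S* curcumin, where it was covered by 5 peaks. *Ikzf1* (chr11:11684086-11694481), the Ikaros factor of lymphoid development, was the only one of the 30 that was widest in *GFI1-36S* curcumin. There it measured 10396 bp, against 8117 bp with vehicle, 8448 and 7845 bp in the *GFI1-36N* pair, while the *GFI1-KD* pair had 8238 and 7563 bp. Among the 30 domains, *GFI1-36S* curcumin had the narrowest peak at 21 and the lowest fold enrichment at 27. The domain at *Setd1b* (chr5:123135279-123146141), a methyltransferase for H3K4, ranged from 6422 bp in *GFI1-36S* curcumin to 10740 bp in *GFI1-KD* vehicle, and the one at *Kmt2e* (chr5:23429825-23437806) from 4179 bp to 7982 bp in the same libraries. *Kmt2e* also reached the highest fold enrichment outside a stretch on chromosome 4 that is described further on, with 54.1 and 395 fragments at its summit in *GFI1-KD* vehicle. *Cdk6* varied little, with 4536 to 5316 bp.

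The domains over HOX genes and their cofactors were wide in some libraries and missing in others. Of 35 genes of this list, 11 had their TSS in a domain (31.4%), next to 6.05% of all protein-coding genes. The number of them in a broad domain was 6 in *GFI1-36S* vehicle, 8 in *GFI1-36N* vehicle, 11 in *GFI1-36N* curcumin and 8 in *GFI1-KD* curcumin, against 1 in *GFI1-KD* vehicle and 0 in *GFI1-36S* curcumin. As background for this and the other lists, of all protein-coding genes with a TSS in a domain 42.8% and 4.60% were broad with vehicle and curcumin in *GFI1-36S* mice. The shares were 40.4% and 47.6% in *GFI1-36N* mice. They were 80.4% and 24.7% in *GFI1-KD* mice. The 11 genes shared 8 domains, and 3 of these (the *Hoxa* domain, *Pbx3* and 1 of *Hoxc6*) were broad in the same 4 libraries. The domain over *Hoxa3*, *Hoxa7* and *Hoxa9* (chr6:52210728-52231329), homeobox genes of self-renewing progenitors, was the widest outside the chromosome 4 stretch. Its widest peak measured 20292 bp in *GFI1-36S* vehicle, 20333 bp in *GFI1-36N* vehicle, 17253 bp in *GFI1-36N* curcumin and 20528 bp in *GFI1-KD* curcumin. In *GFI1-KD* vehicle it broke into 10 pieces of at most 1088 bp that covered 28.6% of it, and in *GFI1-36S* curcumin no peak was listed. The highest summit held 223, 273, 271 and 252 fragments in the 4 libraries with a wide domain and 75 in *GFI1-KD* vehicle (exact Poisson 95% interval 59.0 to 94.0, counting error only). *Pbx3* (chr2:34355788-34373572), a homeodomain partner of HOX proteins, was broad in the same 4 libraries and split in the other two. It measured 10122 bp with vehicle and 751 bp with curcumin in *GFI1-36S*, 6802 and 14111 bp in the *GFI1-36N* pair, while the *GFI1-KD* pair had 2896 and 17785 bp. *Hoxc4* and *Hoxc5* shared a domain (chr15:103013779-103020751) of 6929, 6929 and 6729 bp in the *GFI1-36N* libraries and *GFI1-KD* curcumin, which was split to 2327 bp in *GFI1-36S* vehicle and missing in the other two. *Hoxb7* and *Hoxb8* (chr11:96280644-96287766) were broad in *GFI1-36N* curcumin alone, with 7123 bp, and *Hoxb6* (chr11:96290760-96296036) likewise, with 5277 bp. *Pbx2*, in a domain with *Notch4* and *Gpsm3*, was the 1 gene of the list that was broad in *GFI1-KD* vehicle, and it was broad in all libraries but *GFI1-36S* curcumin.

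11 domains were broad in all libraries except *GFI1-KD* vehicle and *GFI1-36S* curcumin, and 6 of them had no peak in either of these. Beside the *Hoxa* domain, *Pbx3* and *Hoxc6*, they lay at *Ascc3*, *Phip*, *9930021J03Rik* (2 domains), *Clec2i*, and within the genes *Adk*, *Zcchc7* and *Boll*. The domain at *Ascc3* (chr10:50633880-50643326), a helicase of the ribosome quality control, measured 9167, 8988, 9247 and 9212 bp in the 4 libraries with a peak. The intragenic domain of *Adk* (chr14:21144292-21156922) was 68140 bp away from the nearest TSS and measured 11970, 6912, 12631 and 12050 bp in the same libraries. Both were therefore wide in *GFI1-36S* vehicle, in both *GFI1-36N* libraries and in *GFI1-KD* curcumin. *Lin28b* (chr10:45457279-45471416), an RNA-binding protein of fetal progenitors, had 12891 and 8534 bp in *GFI1-36N* mice and 5575 bp in *GFI1-KD* curcumin, 9 pieces of at most 2184 bp in *GFI1-36S* vehicle and no peak in the other two. *Zfpm2* (chr15:40653991-40667903), a GATA cofactor, was broad in the same 3 libraries with 5044, 13574 and 4739 bp and missing in the remaining 3.

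Outside the chromosome 4 stretch, 208 domains had no peak in at least 1 library, and 152 of them lacked it in exactly 1. In *GFI1-36S* curcumin 191 of these were missing, 145 of them in this library alone. Without this library, 49 domains outside the stretch were broad in 1 and missing in another of the other 5 libraries (90 with the stretch). In *GFI1-KD* vehicle, 45 domains outside the stretch were missing, 36 of which were also missing in *GFI1-36S* curcumin, and 19 were broad in *GFI1-KD* curcumin. In the *GFI1-KD* pair, 27 of the 1243 domain regions with a curcumin peak had none with vehicle (2.17%), against 14.5% of all regions with a curcumin peak, and 17 of 1233 with a vehicle peak had none with curcumin (1.38%), against 40%. In *GFI1-36S*, 192 of 1262 domain regions with a vehicle peak had none with curcumin (15.2%), against 63.6% of all regions. In *GFI1-36N*, 50 of 1302 with a curcumin peak had none with vehicle (3.84%), against 36.8%, and 36 of them lay in the chromosome 4 stretch. A vehicle peak without a curcumin peak was found at 8 of 1260 domain regions of these mice (0.635%), against 20.1%, and a curcumin peak without a vehicle peak at 8 of 1078 in *GFI1-36S* mice (0.742%), against 23.1%.

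**Figure D2:**
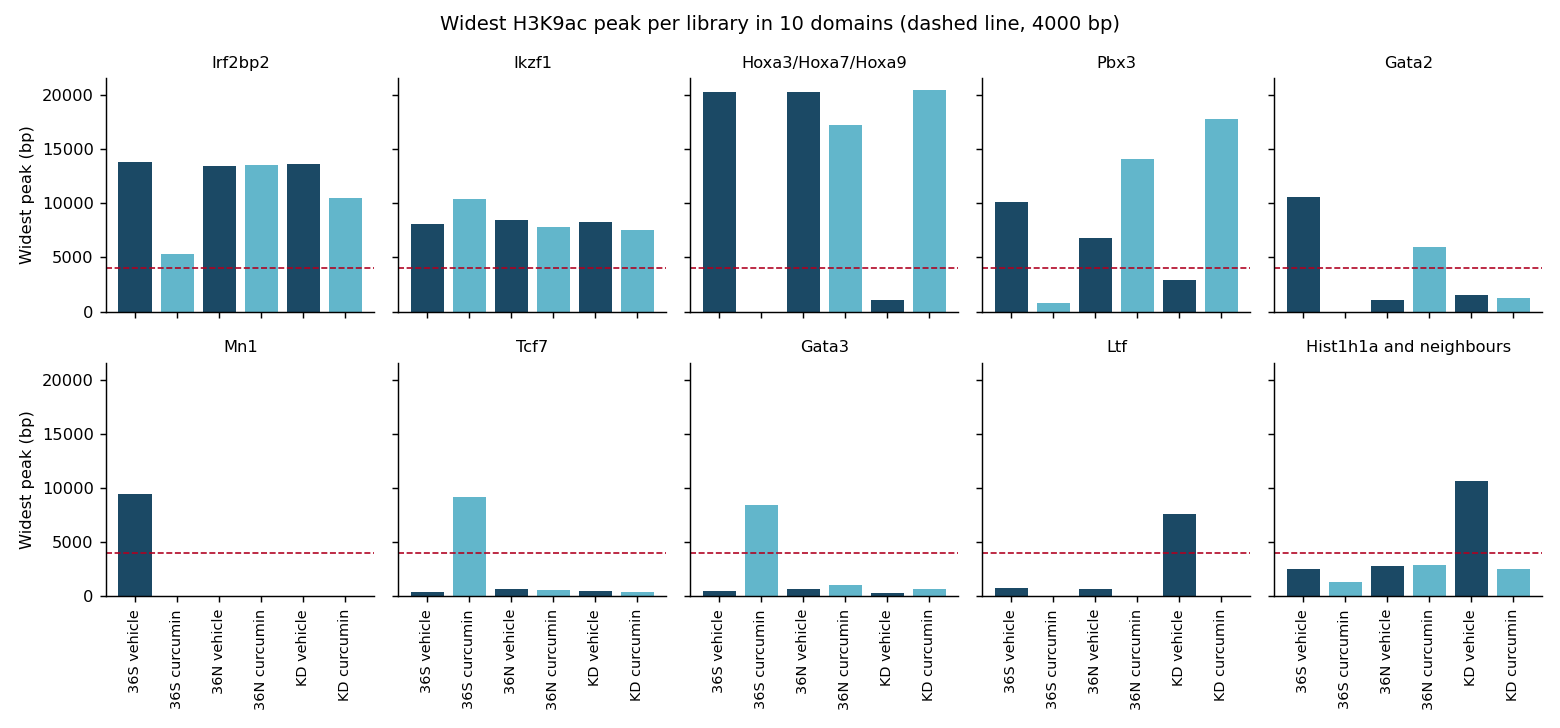
The bars give the width in bp of the widest peak of each library in 10 domains, dark for vehicle and light for curcumin, and the dashed line marks 4000 bp. *Irf2bp2* and *Ikzf1* are above the line in all 6 libraries, the *Hoxa* domain and *Pbx3* in the same 4, *Gata2* in 2, and *Mn1*, *Tcf7*, *Gata3*, *Ltf* and the *Hist1h1a* domain in 1.

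The stem cell heptad, 7 transcription factors that bind together in haematopoietic stem and progenitor cells, had all 7 members in a domain. Of these, 6 were broad with vehicle and 0 with curcumin for *GFI1-36S*, 3 and 5 in the *GFI1-36N* pair, while the *GFI1-KD* pair had 5 and 2. With 7 genes, the counts in *GFI1-KD* mice and the 0 in *GFI1-36S* curcumin are near the shares of all domain genes given above. *Gata2* (chr6:88193398-88204014) measured 10617 bp in *GFI1-36S* vehicle and 5959 bp in *GFI1-36N* curcumin, had pieces of at most 1027, 1557 and 1244 bp in *GFI1-36N* vehicle, *GFI1-KD* vehicle and *GFI1-KD* curcumin, and had no peak in *GFI1-36S* curcumin. *Tal1* (chr4:115055690-115062099) was broad in the vehicle libraries of *GFI1-36S* and *GFI1-KD* mice, with 5479 and 6410 bp, and measured 2930, 2329 and 2232 bp in *GFI1-36N* vehicle and the curcumin libraries of *GFI1-36N* and *-KD*. *Lyl1*, in a domain with *Nfix* (chr8:84700170-84709354), was broad at 8325 to 9185 bp in 5 libraries and measured 417 bp in *GFI1-36S* curcumin. *Lmo2* had 2 domains. The one at chr2:103968245-103973221 measured 4302 to 4942 bp in 5 libraries, whereas the one at chr2:103956947-103962906 was broad in the vehicle libraries of *GFI1-36S* and *GFI1-KD* alone, with 5358 and 5960 bp. *Gata2*, *Tal1*, *Lmo2* and *Erg* had no peak in their domains in *GFI1-36S* curcumin. *Mn1* (chr5:111416205-111425677), a transcriptional coactivator that causes leukaemia when overexpressed, had a domain of 9473 bp with 106 fragments at the summit in *GFI1-36S* vehicle, and no peak overlapped it in the other 5 libraries.

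Of 22 leukaemia and progenitor genes, 8 were in a domain, and between 5 and 7 of them were broad in each library except *GFI1-36S* curcumin, with 1 (*Cdk6*). *Myb*, *Mcl1*, *Cd47* and *Etv6* were broad in the 5 other libraries. *Myb* (chr10:21155384-21162013), a progenitor transcription factor, ranged from 4866 to 6597 bp in these and measured 3912 bp in *GFI1-36S* curcumin, just under the cut. *Myc* (chr15:61983642-61988397) was broad in *GFI1-36N* curcumin alone, with 4756 bp, and measured 2598 to 3621 bp elsewhere. *Sox4* was broad in both *GFI1-36N* libraries and *GFI1-KD* curcumin, with 4820, 4947 and 5447 bp. *Ikzf2*, the Helios factor, was broad in *GFI1-KD* curcumin alone. Its TSS domain (chr1:69679058-69689190) measured 10133 bp there and 2472 to 3944 bp elsewhere, and another domain within the gene (chr1:69662673-69674189) measured 11517 bp, against pieces of at most 505 and 398 bp in *GFI1-36S* and *GFI1-36N* curcumin and no peak in the 3 vehicle libraries. These were 2 of the 11 domains broad in *GFI1-KD* curcumin alone. Others were *Fgl2*, *Thbd*, *Pecam1* with *Milr1*, *Klhl4*, and a domain within *Nav3* that no other library had.

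The 22 domains broad in *GFI1-36S* curcumin alone included genes of T cells. Of 28 T-cell genes, *Tcf7*, *Gata3* and *Bcl11b* were in a domain, and the 3 were broad in this library only. *Tcf7* (chr11:52274227-52283374), a transcription factor of early T cells, measured 9148 bp with 129 fragments at the summit, against 406 to 696 bp and 23 to 29 fragments in the other 5 libraries. *Gata3* (chr2:9871064-9879493) measured 8430 bp, against 354 to 1036 bp elsewhere. *Bcl11b* (chr12:107999555-108004131) measured 4577 bp, next to a peak of 251 bp in *GFI1-36N* vehicle and no peak in the other 4. Domains of the same kind lay over the T-cell receptor loci. The one over *Tcrg-C4* and *Tcrg-V1* (chr13:19336522-19346688) measured 10167 bp and was split into 7 pieces of at most 1655 bp in *GFI1-36N* vehicle, while the other 4 libraries had no peak. The one over joining segments of the alpha chain, from *Traj17* on (chr14:54193256-54202339), measured 9084 bp and had no peak in any other library. The one over *Trbd2* and *Trbj2* segments (chr6:41541906-41545967) measured 4062 bp, against 2057 bp in *GFI1-36N* vehicle and 619 bp in *GFI1-36S* vehicle. The *GFI1-36S* curcumin library was also the one with promoter peaks at 26 of 28 T-cell genes, whose summed fold enrichment was 267 against 92.0 to 127 elsewhere, and at 4 of 17 erythroid genes against 8 to 17. The 28 genes include *Tcf7*, *Gata3* and *Bcl11b*, so their count and sum are not independent of the domains above. The part of the cell types in these domains was not tested. Other domains of this group were *Grap2*, *Sla*, *Endou* (2 domains), *Rapgef3*, *Nr3c1* and an intron of *Ets1*, and 12 of the 22 had no peak in *GFI1-KD* curcumin.

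348 domains were broad in *GFI1-KD* vehicle alone, more than in any other library. Of these, 319 (91.7%) held the TSS of a protein-coding gene and 287 had a peak in all 6 libraries. Their median widest peak was 4506 bp in *GFI1-KD* vehicle and 2976 bp, 2811 bp, 2767 bp and 2373 bp in *GFI1-36S* vehicle, *GFI1-36N* vehicle, *GFI1-36N* curcumin and *GFI1-KD* curcumin. In the same 4 libraries, peaks still covered a median of 83.2%, 80.5%, 79.7% and 68.2% of the domain, and 284, 276, 269 and 217 of the domains were split. The median of the highest fold enrichment was 27.8 in *GFI1-KD* vehicle and 23.4, 20.4, 24.2 and 22.5 in these libraries. Over all domains with a peak in the library, it was 28.4 in *GFI1-KD* vehicle and 24.2, 22.3, 25.5 and 23.8 in the same order. The 348 domains were chosen by their width in *GFI1-KD* vehicle, so nothing particular to them is read from these values. In these 4 libraries, between 1 and 5 of the 348 domains were missing, against 61 in *GFI1-36S* curcumin.

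Histone genes, which make the histones for DNA replication, were among these domains. 12 domains held TSSs of 29 histone genes, and 11 of the 12 lay on chromosome 13. All 12 were broad and widest in *GFI1-KD* vehicle, 9 in this library alone. 2 were broad in *GFI1-36S* vehicle, 3 in each of the *GFI1-36N* libraries, 2 in *GFI1-KD* curcumin and 0 in *GFI1-36S* curcumin. Of all 1315 domains, 74.1% were broad in *GFI1-KD* vehicle, and 348 in this library alone. The shares were 24.0% in *GFI1-KD* curcumin, 39.3% and 5.10% in the *GFI1-36S* pair, and 37.9% and 49.8% in the *GFI1-36N* pair. How many of all domains were widest in *GFI1-KD* vehicle was not counted. The domain over *Hist1h1a*, *Hist1h3a*, *Hist1h4a* and *Hist1h4b* (chr13:23754949-23765646) measured 10698 bp in *GFI1-KD* vehicle, where 204 fragments lay at the summit. In *GFI1-36S* mice it was broken into pieces of at most 2556 bp with vehicle and 1317 bp with curcumin, in *GFI1-36N* mice of at most 2783 and 2905 bp, and in *GFI1-KD* curcumin of at most 2566 bp. The fold enrichment at its highest summit was 28.0 in *GFI1-KD* vehicle and 29.8 in *GFI1-KD* curcumin. Over the 12 domains the fold enrichment was higher in *GFI1-KD* vehicle than in *GFI1-KD* curcumin at 10, with medians of 29.1 and 27.7. Over all domains with a peak in both libraries, the medians were 28.6 and 24.0. Near-identical histone genes can share reads, and the position of a fragment among them is uncertain.

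Of the 9 domains over myeloid regulators, 7 were widest in *GFI1-KD* vehicle, whereas *Gfi1* was widest in *GFI1-36N* curcumin and *Irf8*, with 8480 bp, in *GFI1-36N* vehicle. The share of all 1315 domains that were widest in *GFI1-KD* vehicle was not counted. By pairs, *GFI1-KD* vehicle was wider than *GFI1-KD* curcumin at 1126 of them, than *GFI1-36S* vehicle at 988 and than *GFI1-36N* vehicle at 987. Of 12 myeloid regulators, 9 had a domain, and 9 were broad in *GFI1-KD* vehicle, 5 in *GFI1-KD* curcumin, 5 and 4 in *GFI1-36N* vehicle and curcumin, and 3 and 1 in *GFI1-36S* vehicle and curcumin. Of all domain genes, 80.4% were broad in *GFI1-KD* vehicle and 4.60% in *GFI1-36S* curcumin, and nothing particular to the list is read from these counts. *Spi1* (chr2:91080043-91088924), which encodes the myeloid factor PU.1, measured 8882 bp in *GFI1-KD* vehicle, 4868 bp in *GFI1-KD* curcumin, 4640 and 3914 bp in *GFI1-36N*, and 3698 and 443 bp in *GFI1-36S* mice. *Cebpa*, *Cebpd* and *Cebpe*, factors of granulocyte differentiation, were broad in *GFI1-KD* vehicle alone with 4790, 4863 and 4566 bp and had no peak in *GFI1-36S* curcumin. *Cebpb* and *Irf8* were broad in all libraries but *GFI1-36S* curcumin. *Gfi1* itself (chr5:107722761-107728633) was broad in 4 libraries, with 4488 and 4555 bp in *GFI1-36S* vehicle and curcumin, 4773 bp in *GFI1-36N* curcumin and 4575 bp in *GFI1-KD* vehicle, and measured 3038 bp in *GFI1-36N* vehicle and 2817 bp in *GFI1-KD* curcumin. *Gfi1* was the 1 myeloid regulator broad in *GFI1-36S* curcumin. Human cDNAs stand in this locus in *GFI1-36S* and *-36N* mice, whereas reads were aligned to the mouse genome. The part of the altered locus in these widths was not tested.

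Of 16 neutrophil genes, 6 had a domain, and 4 of them (*Ltf*, *S100a8*, *Ngp* and *Cebpe*) were broad in *GFI1-KD* vehicle, a share below the 80.4% of all domain genes. *Ltf* (chr9:111018662-111026247), the granule protein lactoferrin, measured 7586 bp with 80 fragments at the summit. It was split into 5 pieces of at most 796 and 670 bp in the vehicle libraries of *GFI1-36S* and *GFI1-36N* mice, where the summit held 25 fragments in each. No peak overlapped the domain in the 3 curcumin libraries, although *GFI1-36N* curcumin had a peak within 1 kb of a TSS of *Ltf*. *S100a8* (chr3:90668712-90672795) measured 4084 bp with 215 fragments, against 646 to 3409 bp and 41 to 75 fragments in the 4 other libraries with a peak. *Ngp* was broad at 4112 bp and had no peak in *GFI1-36S* and *GFI1-KD* curcumin. The macrophage gene *Lyz2* measured 6128 bp, against 2698 to 3418 bp in the other libraries with a peak, and *Slc4a1*, the anion exchanger of red cells, 5047 bp, against 1392, 1244 and 337 bp. Promoter peaks were listed at 14 of 16 neutrophil genes in *GFI1-KD* vehicle with a summed fold enrichment of 197, and at 9 with 96.8 in *GFI1-KD* curcumin, and at 17 and 8 of 17 erythroid genes. The monocyte and macrophage list differed, with 10 of 10 genes in both and a summed fold enrichment of 137 with vehicle and 151 with curcumin. *GFI1-36S* vehicle likewise had promoter peaks at 14 neutrophil and 17 erythroid genes. The part of the cell types was not tested here either. *Prtn3*, a protease of early granules, was broad in *GFI1-36S* vehicle and in *GFI1-36N* and *GFI1-KD* curcumin, with 4488, 5459 and 4372 bp. Peaks covered 90.9%, 100% and 85.8% of the domain there. In *GFI1-KD* and *GFI1-36N* vehicle it was split, with 3720 and 3374 bp, yet 91.2% and 89% were covered. *GFI1-36S* curcumin had no peak.

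**Figure D3:**
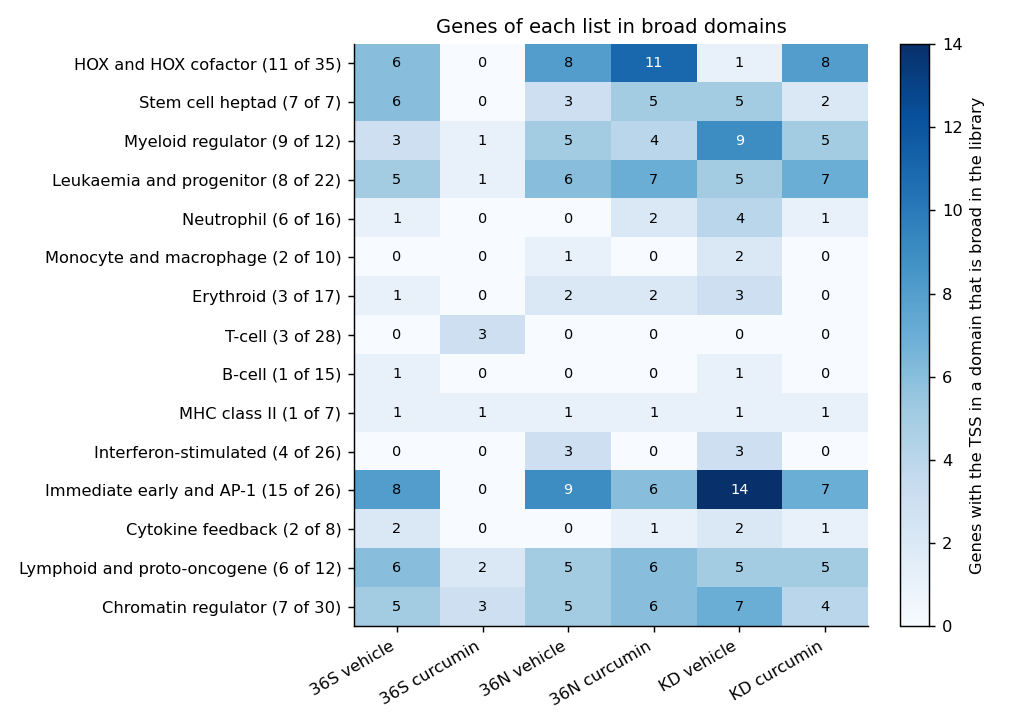
Each row is a gene list, with the number of its genes that had a TSS in a domain, and each cell gives how many of these were in a domain broad in that library. The HOX list shows 11 genes in *GFI1-36N* curcumin and 1 in *GFI1-KD* vehicle, and the T-cell list 3 genes in *GFI1-36S* curcumin and 0 elsewhere. The megakaryocyte list had 0 of 10 genes in a domain and is not drawn.

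Immediate early genes, which respond within minutes to stimulation, had 15 of 26 members in a domain (57.7%). Of these, 14 were broad with vehicle and 7 with curcumin for *GFI1-KD*, 9 and 6 in the *GFI1-36N* pair, while the *GFI1-36S* pair had 8 and 0. Of all domain genes, 80.4% and 24.7% were broad in the *GFI1-KD* libraries and 4.60% in *GFI1-36S* curcumin, beside which these counts are to be read. *Jund* (chr8:70695012-70701135), an AP-1 subunit, measured 6075 and 6058 bp in the vehicle libraries of *GFI1-36N* and *GFI1-KD* mice and 3227 and 3301 bp in their curcumin libraries, while both *GFI1-36S* libraries were below the cut with 3310 and 2088 bp. *Btg2* was broad in the same 2 libraries, with 4371 and 4157 bp. *Fos* (chr12:85471572-85475712) passed the cut in them by little, with 4141 and 4069 bp, and measured 3935, 3451 and 3948 bp in *GFI1-36S* vehicle, *GFI1-36N* curcumin and *GFI1-KD* curcumin. *Zfp36* (chr7:28374866-28386724), which encodes an RNA decay factor, was broad at 7362 to 11771 bp in all libraries but *GFI1-36S* curcumin. Of 26 interferon-stimulated genes, 4 had a domain, and 3 of these were broad in *GFI1-36N* vehicle, 3 in *GFI1-KD* vehicle and 0 in the other 4 libraries. Of all domain genes, 40.4% and 47.6% were broad with vehicle and curcumin in *GFI1-36N* mice, 80.4% and 24.7% in *GFI1-KD* mice, and 42.8% and 4.60% in *GFI1-36S* mice. With 4 genes, nothing particular to the list is read from these counts. *Trim25* (chr11:88998426-89004133), a ubiquitin ligase of RNA sensing, measured 5401 and 5606 bp in the vehicle libraries of *GFI1-36N* and *GFI1-KD* mice and 2125 and 2210 bp in the matched curcumin libraries. *Irf9* measured 4165 and 4019 bp against 3046 and 1827 bp, and *Mx1* 4468 bp in *GFI1-36N* vehicle against 926 bp with curcumin. The remaining lists had 7 of 30 chromatin regulators, 6 of 12 lymphoid and proto-oncogenes, 2 of 10 monocyte genes, 3 of 17 erythroid genes, 1 of 15 B-cell genes, 1 of 7 MHC class II genes and 2 of 8 cytokine feedback genes in a domain. Within the chromatin regulator list, *Setd1b*, *Kmt2e* and *Arid1a* were broad in all 6 libraries. *Ezh2*, the methyltransferase for H3K27, was broad in *GFI1-36N* curcumin and *GFI1-KD* vehicle, with 4694 and 4423 bp.

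Curcumin and vehicle were compared within each genotype by the domains that were broad in 1 library of the pair. In *GFI1-KD* mice, 272 domains were broad in both, 703 with vehicle alone and 44 with curcumin alone. Vehicle alone thus made up 94.1% of the discordant domains (Wilson 95% interval 92.2% to 95.6%, counting error only). Of the 703, 445 were split and 253 short with curcumin, and 5 were missing. In *GFI1-36N* mice, 348 domains were broad in both, 151 with vehicle alone and 307 with curcumin alone, and vehicle alone made up 33.0% (28.8% to 37.4%). Without the chromosome 4 stretch, 253 were broad with curcumin alone, and the share was 37.4%. In *GFI1-36S* mice, 35 domains were broad in both, 482 in the library labelled vehicle alone and 32 in the library labelled curcumin alone, with a share of 93.8% (91.3% to 95.6%). If the list names were right and the labels wrong, this share would be 6.23%. Among vehicle libraries, *GFI1-KD* was broad alone at 550 domains and *GFI1-36S* alone at 92, *GFI1-KD* alone at 563 and *GFI1-36N* alone at 87, and *GFI1-36N* alone at 197 and *GFI1-36S* alone at 215. If the *GFI1-36S* list names were right, *GFI1-KD* would be broad alone at 936 and *GFI1-36S* at 28, and *GFI1-36N* at 459 and *GFI1-36S* at 27. 23 domains were broad in the 3 vehicle libraries alone, among them *B2m*, *Hspa8*, *Arrb2* and *Ddx6*, and 0 in the 3 curcumin libraries alone. With the *GFI1-36S* treatments exchanged these numbers were 2 and 4, so the contrast rests on the labels of this pair. These comparisons share libraries and are not independent.

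**Figure D4:**
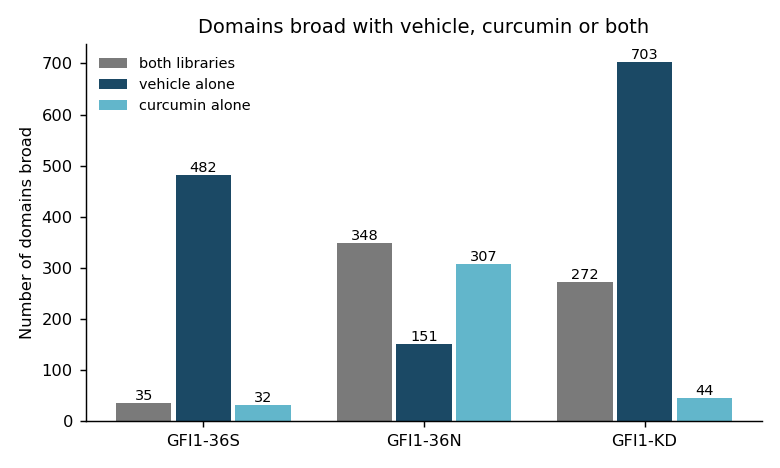
The bars give the number of domains broad in both libraries of a genotype, with vehicle alone and with curcumin alone. In *GFI1-36S* and *GFI1-KD* mice, vehicle alone (482 and 703) exceeded curcumin alone (32 and 44), and in *GFI1-36N* mice curcumin alone (307) exceeded vehicle alone (151).

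Width and height were also compared over all regions, to give the background for the domains. Among the regions with a peak in both libraries of the *GFI1-KD* pair, the widest peak was at least 1.5-fold wider with vehicle at 544 of 1216 domain regions (44.7%), next to 32.6% of all 21655 regions, and at least 1.5-fold wider with curcumin at 31 (2.55%), next to 5.21%. In *GFI1-36N* mice, 194 of 1252 domain regions (15.5%) were wider with curcumin, next to 16.7% of all regions, and 121 (9.66%) with vehicle, next to 13%. In *GFI1-36S* mice, 807 of 1070 (75.4%) were wider with vehicle, next to 59.6%, and 28 (2.62%) with curcumin, next to 4.35%. The highest fold enrichment, divided by the median ratio of the pair, was at least 1.5-fold higher with vehicle at 72 domain regions of *GFI1-KD* mice (5.92%), next to 6.86% of all regions, and with curcumin at 32 (2.63%), next to 10%. In *GFI1-36N* mice it was higher with curcumin at 68 (5.43%), next to 5.59%, and with vehicle at 34 (2.72%), next to 7%. In *GFI1-36S* mice it was higher with vehicle at 176 (16.4%), next to 12.1%, and with curcumin at 61 (5.70%), next to 15.3%. Without the division, the domain regions higher with vehicle and with curcumin numbered 115 and 20 in *GFI1-KD*, 16 and 125 in the *GFI1-36N* pair, while the *GFI1-36S* pair had 746 and 15. Between vehicle libraries, *GFI1-KD* was at least 1.5-fold wider than *GFI1-36S* at 367 of 1229 domain regions (29.9%), next to 27.3% of all regions, and narrower at 51 (4.15%), next to 7.22%. It was wider than *GFI1-36N* at 387 of 1228 (31.5%), next to 23.8%, and narrower at 50 (4.07%), next to 9.27%. *GFI1-36N* was wider than *GFI1-36S* at 153 of 1252 (12.2%), next to 18.2%, and narrower at 155 (12.4%), next to 12.6%. The same lists chose the members, and nothing is read from these shares.

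In *GFI1-36N* curcumin, 54 domains lay side by side over 1.18 Mb of chromosome 4 (chr4:124999881-126176239). Peaks of this library covered 86.4% of the stretch, against 0.940% to 3.67% in the other 5 libraries. In the 1 Mb on either side, its peaks covered 2.80% and 3.86%, against 1.30% to 3.01% and 2.54% to 4.40% in the others. Of the 54 domains, 53 were broad in this library alone, 38 held no TSS of a protein-coding gene and 36 had no peak in any other library. *Csf3r* (chr4:126014315-126037084), the receptor for the granulocyte growth factor G-CSF, measured 22770 bp with 325 fragments, against 2607 to 3572 bp and 98 to 147 fragments in the libraries with a peak, and no peak in *GFI1-36S* curcumin. *Zc3h12a* (chr4:125112764-125129534), an RNase that limits inflammation, measured 16771 bp, and it was the 1 domain of the stretch that was also broad in another library, with 6020 bp in *GFI1-KD* vehicle. The highest fold enrichment in the stretch was 59.0, against 15.1 to 38.4 in the other libraries. The stretch as a whole, inside or outside its domains, held the TSSs of 15 protein-coding genes. The number of DNA copies of this stretch was not measured, and the series holds no input of *GFI1-36N* curcumin marrow. Outside the stretch, 92 domains were broad in *GFI1-36N* curcumin alone, 61 with the TSS of a protein-coding gene, among them *Hoxb7* with *Hoxb8*, *Hoxb6*, *Myc*, *Zbtb18* and *Dennd1a*.

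**Figure D5:**
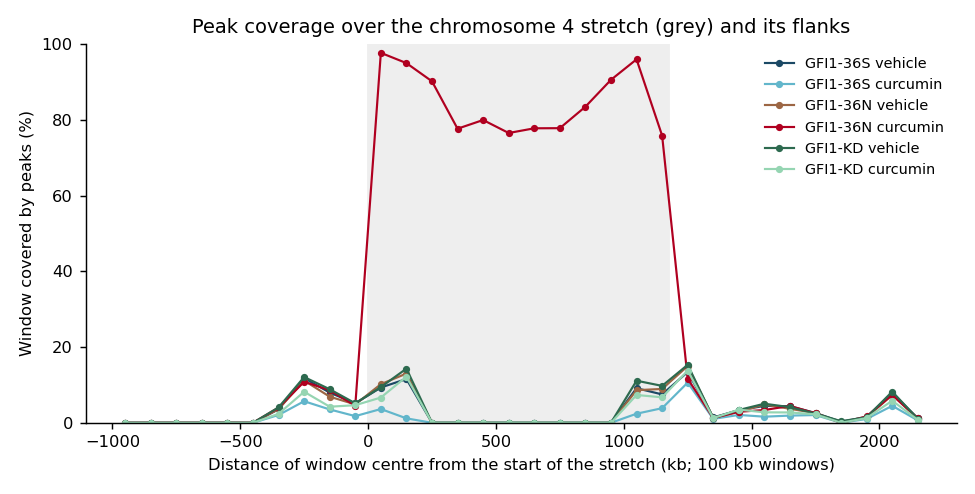
The lines give the share of each 100 kb window that peaks covered in each library, by the distance in kb of the window centre from the start of the stretch, which is shaded. *GFI1-36N* curcumin rises within the shaded stretch, 86.4% of which it covered, and falls back to the level of the other libraries on both sides.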

How the data were processed

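H3K9ac ChIP-seq peak lists of 6 libraries were used, 1 for each of 3 *GFI1* genotypes with vehicle or curcumin, and samples were grouped by their labels. Per the paper's methods and the submitters' processing notes, reads were trimmed with Trim Galore, aligned to mm10 with BWA-MEM, and peaks were called with MACS2 for each sample and filtered against the ENCODE black list. The notes also name Picard, SAMtools and deepTools. The control behind each list, the threshold and the treatment of duplicates are not given in the sources used here. Such choices set where a peak ends, and therefore its width. The authors deposited for each peak a fold enrichment over the local background (a ratio), the −log10 of its p-value and q-value, and a score. The lists give no read totals, so depth is known only at summits, and intervals cover counting error only. Columns of authors' comparisons were not used.

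Peaks of at least 4000 bp were merged where they overlapped by 1 bp or more, and each domain was described in every library by its widest peak, its highest fold enrichment and the share covered. Regions for the background were all peaks of the 6 libraries merged likewise. Fragments at a summit were recovered as the whole number that gives the deposited fold enrichment and p. TSSs came from GENCODE and the sequences from RefSeq (GRCm38). Ratios of enrichment were divided by the median ratio over all regions of a pair. Python 3.11.15 with numpy 2.4.6, scipy 1.17.1, pandas 2.3.3, pysam 0.24.0 and matplotlib 3.10.9 was used, and the scripts were tested on simulated data.

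The members and the gene lists were chosen with earlier results of these data known, so no list is independent evidence. Some genes are on 2 lists (*Cebpe*, *Klf2*, *Bcl6*, *Runx1*). Named genes were those of the widest domains, of the largest minimum width, of the largest differences within a pair, of the widest missing and split domains, of the highest fold enrichment, of the peaks next to the cut, and of the lists. The genes of domains broad in 1 library or in 1 combination of libraries, and the histone genes, were named after their values were seen. Alternatives covered the width minimum, joining of near peaks, the −log10 q minimum, equal numbers of peaks, the fold, the TSS set, exchanged treatments and left-out libraries. The widest domain of the chromosome 4 stretch is not reported here.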

Additional observations from a re-analysis of the deposited data

Results flagged for a closer look

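The number of broad domains differed between vehicle and curcumin in opposite directions in the 3 genotypes. With curcumin it fell by 450 in *GFI1-36S* mice and by 659 in *GFI1-KD* mice (a change of -450 and -659 domains), whereas in *GFI1-36N* mice it was higher by 156, or by 102 without the stretch on chromosome 4. Each group was 1 library, and the difference between genotypes was not tested. The direction in *GFI1-36S* mice rests on the sample labels, which the names of these lists contradict. The *GFI1-36S* curcumin library also had promoter peaks at 1 of 16 neutrophil genes and 26 of 28 T-cell genes. Its list was the shortest, with 20354 peaks, and that of *GFI1-36N* curcumin the longest, with 49213. The names of the *GFI1-36N* lists, +ki for vehicle and kiki for curcumin, may stand for different copy numbers of the allele. Treatment and copy number could then not be told apart in this pair. The part of any of these in the result was not tested.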

How the results depend on the processing

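Of 91 values recomputed under alternatives, 53 kept their value within the limits set, 37 moved and 1 reversed. With a minimum width of 3000 bp there were 3154 domains, 136 broad in all 6 libraries and 610 missing in at least 1, and with 5000 bp 592, 8 and 133. With peaks up to 500 bp apart joined, there were 2425, 113 and 563, and 82.4% held a protein-coding TSS. This share was 89.9% with TSSs of all biotypes and 89.5% without the chromosome 4 stretch, an alternative chosen after seeing the data. Without *GFI1-36S* curcumin, 176 domains were broad in all libraries and 90 missing in at least 1. With broad taken as 50% of the domain covered, 492 were broad in all 6 libraries, and vehicle alone made up 97.2%, 21.3% and 78.4% of the discordant domains for *GFI1-36S*, *-36N* and *-KD*. At 5000 bp the share was 89.5% in *GFI1-36S* and 91.4% in *GFI1-KD* mice, and with the *GFI1-36S* treatments exchanged it reversed to 6.23%. At a fold of 2, 18, 91 and 21 domain regions of *GFI1-36S*, *-36N* and *-KD* mice were wider with curcumin and 590, 36 and 284 with vehicle. Enrichment at this fold was higher with curcumin at 25, 31 and 11, and with vehicle at 60, 8 and 23 in *GFI1-36S*, *GFI1-36N* and *GFI1-KD* mice. Without the division by the median ratio, it was higher with curcumin at 15, 125 and 20, and with vehicle at 746, 16 and 115. With equal numbers of top peaks, enrichment in *GFI1-36N* mice was higher with curcumin at 41 and with vehicle at 41, and the excess with curcumin (68 against 34) was gone. The cause of these shifts was not tested. No paired analysis was possible because each group had 1 library.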
